A study of Mus musculus with 6 samples.

Results

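Hair follicle mesenchyme was examined for 7 genes whose surface proteins are known to restrain immune cells: Cd200, Cd47, Cd274, Cd276, Pdcd1lg2, Nt5e and Entpd1. They are 7 of the 24529 genes measured, found by their symbols, and the set was chosen because Cd200 was very high in the dermal sheath. The Cd200 level was therefore selected on these same libraries, and it is described here with no test. RNA had been sequenced from 3 sorted populations of back skin of female CD1 mice, an outbred strain, at postnatal day 16, when follicles enter the regression phase called catagen. The populations were dermal sheath cells (DS), which wrap the follicle, dermal papilla cells (DP), which sit at its base, and dermal fibroblasts (DF) of the surrounding dermis, with 2 biological replicates of each. The labels name no treatment, allele or transgene in any population, and they do not say whether a library pools animals. No source used here says how the cells were marked for sorting.

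The hair follicle is known as a site of relative immune privilege, in which several surface and secreted proteins hold immune cells in check. CD200 binds the receptor CD200R1 on myeloid cells, CD47 binds SIRPA on macrophages and lowers their phagocytosis, and PD-L1 and PD-L2, encoded by Cd274 and Pdcd1lg2, bind PD-1 on T cells. CD276, also called B7-H3, belongs to the same B7 family. CD39, encoded by Entpd1, removes phosphates from extracellular ATP and ADP, and CD73, encoded by Nt5e, turns the resulting AMP into adenosine, which dampens many immune cells through its receptors.

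The sorted populations were read against genes that usually define them. The summed level of 8 dermal sheath markers was 2644 and 2569 RPKM (reads per kilobase of transcript, scaled to the mapped reads of the library) in DS, 100.3 and 120 RPKM in DP, and 35.6 and 44.5 RPKM in DF. Tnc, a matrix glycoprotein gene, was the exception on that list, at 1.89 and 1.59 RPKM in DS against 18.7 and 28.0 RPKM in DP. The sum of 11 dermal papilla markers was 615 and 590 RPKM in DS, 4215 and 4834 RPKM in DP, and 76.2 and 122 RPKM in DF, although Corin was higher in DS than in DP. Of 13 dermal fibroblast markers, 10 were called lower in DS than in DF, beside 5.95% of all tested genes, by the rule that closes this paragraph. In DP against DF 10 were called lower, beside 6.87%. Col1a1 and Lum were among them in both comparisons. Pdgfra and Vim were called higher in DS than in DF, beside 20.6% of all tested genes. Dpp4 and Vim were called higher in DP than in DF, beside 31.5%, and the Dpp4 call was lost under the median-ratio scaling described next. Relative sequencing depth, estimated from the steps between low values, ran between 0.389 and 1.0 with DF replicate 2 set to 1.0, and both DS libraries were the shallowest at 0.389 and 0.465. Over the 14664 genes tested, the median on the log2(RPKM + 1) scale was 0.53 for the comparison DS minus DF, 0.71 for the comparison DP minus DF and -0.17 for the comparison DS minus DP. A further scaling of the libraries by median ratios brought these medians to within 0.02 of 0. It also moved the share of calls that were higher to 44.6% in DS against DF, to 41.7% in DP against DF and to 54.0% in DS against DP, where the deposited values gave 77.6%, 82.1% and 42.4%. Every log2 difference below is on the log2(RPKM + 1) scale as deposited unless the median-ratio scaling is named. A gene was called higher or lower at a limma adjusted p under 0.05 with an absolute log2 difference of at least 1.

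Promoter sequences are shown for Cd200, the gene the set was selected on, and for Nt5e and Cd274, the tested members with the widest differences, of which Nt5e was highest in DS and Cd274 in DP. Each run holds the 250 bases before the RefSeq transcription start in the mouse build GRCm38.p6, 5′ to 3′ on the gene's strand, and capitals mark matches to any motif searched. The Cd200 window lies at chr16:45409054-45409303 on the minus strand, the Nt5e window at chr9:88327359-88327608 on the plus strand, and the Cd274 window at chr19:29367188-29367437 on the plus strand. The annotated Cd274 locus begins upstream of its window, at chr19:29362107-29388095, so the start used there lies inside the locus. The Cd200 locus, at chr16:45382111-45409060, reaches a few bases into the Cd200 window, so that start also lies just inside its locus.
Cd200: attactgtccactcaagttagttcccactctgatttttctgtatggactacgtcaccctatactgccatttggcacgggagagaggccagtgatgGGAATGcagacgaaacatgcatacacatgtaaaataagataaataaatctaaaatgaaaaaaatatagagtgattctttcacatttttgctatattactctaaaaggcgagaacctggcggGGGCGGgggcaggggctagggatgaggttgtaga
Nt5e: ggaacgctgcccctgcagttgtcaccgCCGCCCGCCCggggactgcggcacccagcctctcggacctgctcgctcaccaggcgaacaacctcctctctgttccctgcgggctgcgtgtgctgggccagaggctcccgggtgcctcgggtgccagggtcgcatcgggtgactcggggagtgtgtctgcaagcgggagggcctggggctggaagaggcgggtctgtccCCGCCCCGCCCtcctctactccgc
Cd274: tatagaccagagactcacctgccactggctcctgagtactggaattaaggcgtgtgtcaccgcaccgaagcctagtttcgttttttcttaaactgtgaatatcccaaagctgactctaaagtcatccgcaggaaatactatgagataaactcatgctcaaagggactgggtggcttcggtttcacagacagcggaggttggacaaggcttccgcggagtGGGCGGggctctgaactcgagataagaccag
The Cd200 window had a GC content of 42.4%, lower than most of the 32817 promoter windows of this length, of which 16.9% were lower still. The Nt5e window stood at the other end, with 72.0% GC and 93.1% of windows below it, while the Cd274 window had 50.4% GC against a median of 52.4% over all windows. Both strands were searched for the TATA box (TATAAA), the CCAAT box (CCAAT), the GC box (GGGCGG), the AP-1 site (TGANTCA), the TEAD site (CATTCC), the STAT site (TTCNNNGAA) and the CArG box, the sequence bound by serum response factor. The Cd200 window held 1 GC box, beginning 34 bases before the start, and 1 TEAD site match read from the opposite strand, 155 bases before the start. The Nt5e window held 4 GC box matches in overlapping pairs, and the Cd274 window held 1, beginning 31 bases before the start. A GC box was present in 32.7% of all windows and a TEAD site in 12.6%. None of the other 5 motifs had these letters in any of the 3 windows; their shares over all windows were 12.4% for the TATA box, 33.8% for the CCAAT box, 6.75% for the AP-1 site, 7.01% for the STAT site and 1.47% for the CArG box.

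Cd200 was abundant in DS, moderate in DP and close to the detection filter in DF. Its level was 748 and 536 RPKM in DS, 30.6 and 23.1 RPKM in DP, and 2.27 and 1.83 RPKM in DF. No library of any population overlapped with those of another, and both DS libraries lay far above the rest. The means were 642 ± 150 RPKM in DS, 26.9 ± 5.33 RPKM in DP and 2.05 ± 0.307 RPKM in DF (SD, n = 2 each). The DS mean was 313 times the DF mean and 23.9 times the DP mean, and the DP mean was 13.1 times the DF mean. On the log2 scale DS lay 7.70 above DF and 4.52 above DP, and DP lay 3.18 above DF, beside a replicate SD of 0.267 over the 3 populations. Under the median-ratio scaling these differences were 7.20, 4.72 and 2.48. Within DS, Cd200 ranked 121 of the 14664 tested genes by mean RPKM, so that 99.2% of them were lower, against 69.1% lower in DP and 22.5% lower in DF. In bulk libraries such as these, fewer cells of a type and less RNA per cell cannot be told apart.

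**Figure D1:**
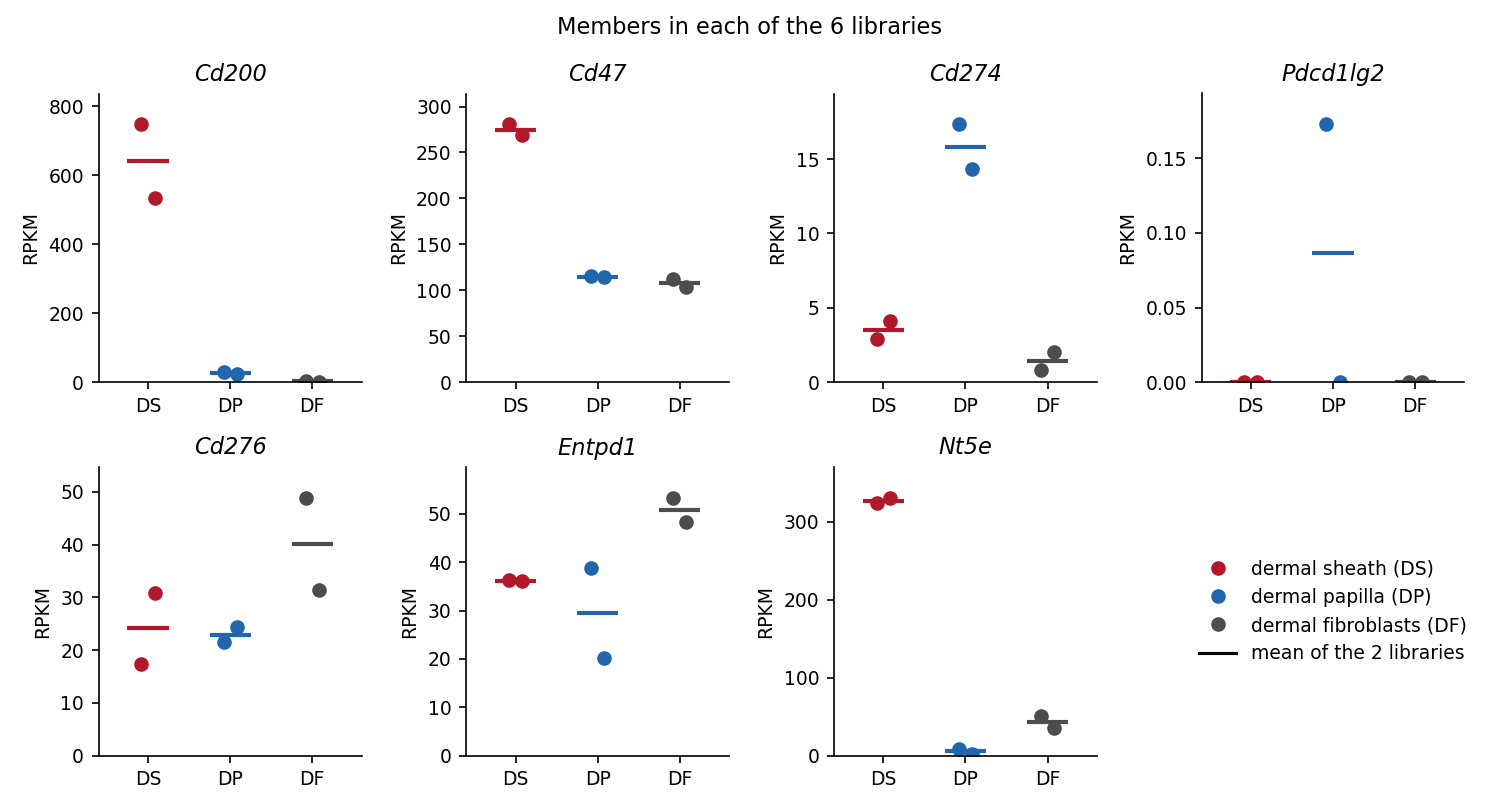
RPKM of each of the 7 genes in every library (dots, 2 per population) with the population mean as a line, on linear axes that start at 0. Cd200 and Nt5e stand highest in DS, Cd274 in DP, Cd276 and Entpd1 have their highest means in DF, and Pdcd1lg2 stays at or near 0.

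Cd200 is also known from endothelial cells, outer root sheath keratinocytes and some leukocytes, so markers of those cells were read beside it. The summed level of 15 endothelial markers was 37.7 and 14 RPKM in DS, 78.8 and 64.3 RPKM in DP, and 21.0 and 16.8 RPKM in DF. Of the 12 that were tested, none was called higher and 1 lower in DS than in DF, beside 20.6% and 5.95% of all tested genes. In DP against DF 4 were called higher, Egfl7, Flt1, Kdr and Plvap, and 1 lower, beside 31.5% and 6.87%. The median-ratio scaling gave 2 higher and 2 lower there. In DS against DP none was higher and 2 were lower, beside 9.42% and 12.8%. The 17 keratinocyte markers summed to 93.7 and 223 RPKM in DS, 162 and 199 RPKM in DP, and 96.0 and 88.8 RPKM in DF. Krt10 alone was at 15.5 and 103 RPKM in DS, 30.7 and 8.97 RPKM in DP, and 20.4 and 17.8 RPKM in DF. The 12 Schwann cell and melanocyte markers summed to 7.28 and 16.8 RPKM in DS, 34.4 and 26.9 RPKM in DP, and 20.3 and 39.5 RPKM in DF. The 12 pericyte and vascular smooth muscle markers summed to 215 and 204 RPKM in DS, 192 and 201 RPKM in DP, and 522 and 493 RPKM in DF. A single gene, Ndufa4l2, made most of the DF sums, with 34.1 and 35.3 RPKM in DS, 29.0 and 51.2 RPKM in DP, and 499 and 467 RPKM in DF. Mcam, at 110 and 101 RPKM in DS against 0.759 and 1.122 RPKM in DF, and Cspg4, Cnn1 and Myh11 were called higher in DS than in DF, while Ndufa4l2, Abcc9, Des and Kcnj8 were called lower. The 25 leukocyte markers summed to 38.5 and 28.8 RPKM in DS, 31.8 and 30.6 RPKM in DP, and 63.5 and 90.2 RPKM in DF. The part of these cells in the Cd200 level was not tested.

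The gene of the CD200 receptor, read here with others of its family, was scarce in all 3 sorted populations. Cd200r1, the inhibitory receptor gene, measured 0.607 and 0.156 RPKM in DS, 0.304 and 0.176 RPKM in DP, and 0.326 and 0.302 RPKM in DF, below the filter for testing. The table holds 4 receptor genes and the CD200-like gene Cd200l1; of these, Cd200r3 and Cd200l1 were tested and neither was called in any comparison. Cd200r3, an activating family member of basophils and mast cells, measured 1.50 and 1.29 RPKM in DS, 2.83 and 0.958 RPKM in DP, and 2.50 and 7.21 RPKM in DF, with the high value in 1 DF library. It was called lower in DS and in DP than in DF under the median-ratio scaling.

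The remaining 6 genes did not share the Cd200 profile as a group. Of the 5 that passed the filter, 2 were called higher and none lower in DS against DF, where 20.6% of all tested genes were called higher and 5.95% lower. In DP against DF, 1 was called higher and 1 lower, beside 31.5% and 6.87% of all tested genes. In DS against DP, 2 were higher and 1 lower, beside 9.42% and 12.8%. Their median log2 difference was 0.92 between DS and DF, -0.75 between DP and DF and 0.36 between DS and DP. Under the median-ratio scaling the counts were 1 higher and none lower for DS against DF, 1 higher and 3 lower for DP against DF, and 2 higher and 1 lower for DS against DP. Of all 14664 genes tested, that scaling called 1174 higher and 1456 lower for DS against DF. For DP against DF it called 1368 higher and 1911 lower, and for DS against DP 1689 and 1439. The adjusted p-values rest on 2 libraries per population and on a spread shared over all 3; an exact permutation test of 2 against 2 could not go below 0.333.

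**Figure D2:**
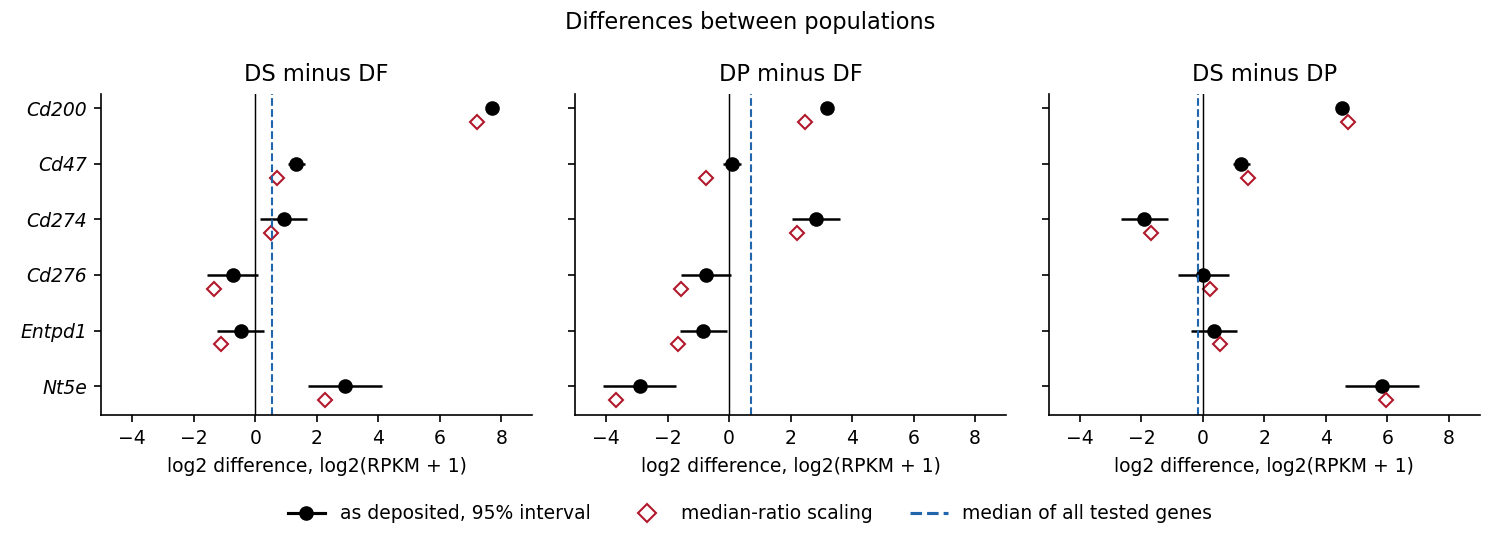
Log2 differences of the 6 genes that passed the filter in each of the 3 comparisons, on the log2(RPKM + 1) scale, with black dots and 95% intervals from limma as deposited and open diamonds after median-ratio scaling. The dashed line marks the median of all 14664 tested genes; Cd200 has no interval because the set was selected on it, and Cd47 in DP minus DF is the point that changes side with the scaling.

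Cd47, the "do not eat me" signal found on most cells, was high everywhere and highest in DS. It measured 280.5 and 269 RPKM in DS, 116 and 114 RPKM in DP, and 113 and 103 RPKM in DF. The DS libraries were set apart from all others, and those of DP lay just above those of DF. DS exceeded DF by 1.34 (SE 0.11) on the log2 scale, which is 2.54-fold, with a limma adjusted p of 0.000807. That call depends on the scaling: the median-ratio scaling gave 0.70 with an adjusted p of 0.0332, short of the minimum of 1. DS exceeded DP by 1.25 (adjusted p of 0.000928, limma), which was called under all 15 alternative settings. DP minus DF was 0.09 with a 95% interval between -0.20 and 0.37 (limma adjusted p of 0.524), and the median-ratio scaling turned it to -0.75.

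Among 10 genes of CD47 partners in the table, 7 were tested: the SIRP receptors, the thrombospondins and integrin subunits that bind CD47, and the enzymes that modify its binding end. In DS against DF 3 were higher and 2 lower, where 20.6% of all tested genes were higher and 5.95% lower. In DP against DF 1 was higher and 3 lower, beside 31.5% and 6.87%. In DS against DP 4 were higher and 2 lower, beside 9.42% and 12.8%. The median-ratio scaling gave 2 higher and 2 lower in DS against DF and 0 higher and 4 lower in DP against DF. Thbs1 encodes thrombospondin 1, a secreted CD47 ligand, and measured 193 and 252.5 RPKM in DS, 31.9 and 26.0 RPKM in DP, and 22.6 and 26.9 RPKM in DF. It was higher in DS than in DF by 3.11 (adjusted p of 0.000344, limma) and than in DP by 2.90 (adjusted p of 0.000357, limma). Thbs2, which encodes the related thrombospondin 2, was at 284 and 279 RPKM in DS, 1.82 and 0.922 RPKM in DP, and 75.9 and 59.6 RPKM in DF, so that DS stood highest and DP almost lacked it. DS exceeded DF by 2.05 and DP by 6.92, and DP minus DF was -4.88, all called (limma adjusted p of 0.00196, 5.45e-05 and 0.000163).

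Sirpa, the receptor for CD47, had the opposite order in DS, at 13.3 and 14.8 RPKM, against 56.7 and 64.3 RPKM in DP and 50.8 and 38.2 RPKM in DF. It was called lower in DS than in DF, at a log2 difference of -1.58 (adjusted p of 0.0023, limma), and than in DP, at -2.03 (adjusted p of 0.000958, limma). Macrophages also carry Sirpa. Of 13 tested leukocyte markers, 7 were called lower in DS than in DF, beside 5.95% of all tested genes. In DP against DF 9 of the markers were called lower, beside 6.87%. None was higher in either comparison, and in DS against DP only Lyz2 was called, as higher. Among macrophage genes of that list, Cd68 measured 6.07 and 7.91 RPKM in DS, 6.24 and 7.27 RPKM in DP, and 4.10 and 8.90 RPKM in DF. Csf1r measured 1.16 and 0.578 RPKM in DS, 2.54 and 1.04 RPKM in DP, and 10.1 and 8.47 RPKM in DF. Their part in the Sirpa result was not tested, and the Sirpa difference for DP minus DF was 0.45 and not called (-0.39 under the median-ratio scaling). Qpct encodes a glutaminyl cyclase, and its paralog Qpctl encodes the Golgi form that modifies CD47 for SIRPA binding. Qpct was lower in DS and in DP than in DF, at 11.4 and 11.2 RPKM in DS, 19.8 and 22.3 RPKM in DP, and 70.6 and 59.5 RPKM in DF. Qpctl was at 4.39 and 6.91 RPKM in DS, 15.8 and 20.0 RPKM in DP, and 4.75 and 5.99 RPKM in DF, and was called higher in DP than in either other population, the call against DF being lost under the median-ratio scaling. Itgb3, the integrin beta 3 subunit, measured 26.9 and 30.5 RPKM in DS, 7.03 and 4.91 RPKM in DP, and 16.5 and 16.6 RPKM in DF, and was called lower in DP than in either other population.

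Cd274, the gene for PD-L1, was the 1 tested member with its highest level in DP. It measured 2.92 and 4.11 RPKM in DS, 17.3 and 14.4 RPKM in DP, and 0.850 and 2.02 RPKM in DF, with no overlap between populations. DP exceeded DF by 2.83 on the log2 scale (adjusted p of 0.00145, limma), an 11.1-fold ratio of means that was called under all 15 alternative settings. DS minus DP was -1.91, called lower (adjusted p of 0.00727, limma), although without DP replicate 1 the adjusted p was 0.055. DS minus DF was 0.92 with a 95% interval between 0.15 and 1.69 and was not called (adjusted p of 0.0567, limma); without DF replicate 2 it was 1.275 with an adjusted p of 0.0309. An antisense gene shares 511 exon bases with Cd274 on the opposite strand, and no source used here says whether counting used strand, so reads of the pair may be mixed. Pdcd1lg2, the PD-L2 gene, was listed at 0 in every library except DP replicate 1, where it was 0.173 RPKM, and was not tested.

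Cd276 differed little between the populations next to its replicate spread. It measured 17.3 and 30.9 RPKM in DS, 21.6 and 24.3 RPKM in DP, and 48.9 and 31.3 RPKM in DF. The DF libraries were the highest, but DF replicate 2 lay only just above DS replicate 2. None of the comparisons was called: DS minus DF was -0.73 (95% interval between -1.56 and 0.10), DP minus DF was -0.75 (between -1.58 and 0.08) and DS minus DP was 0.02. Under the median-ratio scaling Cd276 was called lower in DP than in DF, at -1.57 with a limma adjusted p of 0.0288. Its exons share 416 bases with an unclassified gene on the opposite strand, so its reads may be mixed as well.

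Of 12 genes of PD-1 and B7 partners 6 were tested. In DS against DF 2 were higher and 1 lower, where 20.6% of all tested genes were higher and 5.95% lower. In DP against DF 1 was higher, beside 31.5% higher and 6.87% lower. In DS against DP 1 was higher and 1 lower, beside 9.42% and 12.8%. Pdcd1, the PD-1 receptor gene of T cells, was listed at 0 in all 6 libraries. Cd80, which also binds PD-L1, averaged 0.73 RPKM in DS, 1.57 RPKM in DP and 0.46 RPKM in DF and was not called. Rgmb, a ligand of PD-L2, averaged 15.8 RPKM in DS, 11.8 RPKM in DP and 13.5 RPKM in DF, without a call. Vsir, which encodes the checkpoint protein VISTA, measured 23.2 and 24.0 RPKM in DS, 27.2 and 33.8 RPKM in DP, and 2.68 and 4.33 RPKM in DF. It was higher than in DF in DS by 2.47 (adjusted p of 0.00118, limma) and in DP by 2.82 (adjusted p of 0.000639, limma). Btla, an inhibitory receptor best known from lymphocytes, was at 6.82 and 11.9 RPKM in DS, at 0.0198 and 0 RPKM in DP and listed at 0 in both DF libraries, and it was called higher in DS than in each (limma adjusted p of 0.000709 against DP and 0.000767 against DF). Lymphocyte genes were uneven in the same DS libraries: the pan-leukocyte gene Ptprc was at 0.0171 and 0.0360 RPKM and the T cell gene Cd3e at 0.469 and 0 RPKM, but Cd3d was at 5.08 and 4.12 RPKM and the B cell gene Ms4a1 at 6.73 and 5.52 RPKM. In the DF libraries, where Btla was listed at 0, Cd3d was at 4.58 and 5.81 RPKM and Ms4a1 at 2.52 and 5.96 RPKM; their part in the result was not tested. Icosl, a costimulatory B7 ligand, was lower in DS, at 4.47 and 5.50 RPKM, than in DP with 20.9 and 19.2 RPKM and DF with 13.9 and 18.5 RPKM.

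Interferon gamma is the classical inducer of Cd274 through the Janus kinases and IRF1. A list of 12 genes was read around that input. It also holds genes that act on Cd274 or its protein in other ways, among them Stat3, Irf2 and Cmtm4. All 12 were tested. In DS against DF 2 were higher, Cmtm4 and Irf2, where 20.6% of all tested genes were higher and 5.95% lower. In DP against DF 3 were higher and 1 lower, beside 31.5% and 6.87%. In DS against DP 3 were higher and 2 lower, beside 9.42% and 12.8%. The median-ratio scaling gave 2 higher and 1 lower in DS against DF, 3 higher and 4 lower in DP against DF, and 3 higher and 1 lower in DS against DP. Jak2, the kinase of the interferon gamma receptor, measured 11.1 and 11.4 RPKM in DS, 64.5 and 60.1 RPKM in DP, and 8.40 and 9.07 RPKM in DF, an order like that of Cd274. DP exceeded DF by 2.70 (adjusted p of 0.000228, limma) and DS minus DP was -2.37 (adjusted p of 0.000268, limma). Stat3, a transcription factor that also acts on Cd274, was at 94.0 and 96.6 RPKM in DS, 218 and 198 RPKM in DP, and 36.5 and 61.2 RPKM in DF. Its DP minus DF difference of 2.12 was called (adjusted p of 0.00181, limma), while the DS minus DP call at -1.12 was lost in 5 of the 15 alternatives.

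The receptor gene of interferon gamma did not follow that order. Ifngr1, the ligand-binding receptor chain, was lowest in DP, with 54.7 and 57.0 RPKM in DS, 13.2 and 9.96 RPKM in DP, and 34.9 and 43.7 RPKM in DF. Its DP minus DF difference was -1.68 (adjusted p of 0.0018, limma) and its DS minus DP difference 2.19 (adjusted p of 0.000882, limma). Irf2, an antagonist of IRF1, was at 70.0 and 60.4 RPKM in DS and 85.1 and 96.6 RPKM in DP, against 20.0 and 15.6 RPKM in DF, and was called higher in DS and in DP than in DF. Cmtm4, whose human protein is known to protect PD-L1 from degradation, was at 15.6 and 18.1 RPKM in DS, 5.53 and 5.92 RPKM in DP, and 2.71 and 2.51 RPKM in DF, higher in DS than in either.

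Nt5e, the CD73 gene, separated the 3 populations with DP lowest. It measured 323 and 330.2 RPKM in DS, 8.70 and 2.47 RPKM in DP, and 50.5 and 35.8 RPKM in DF. The 2 DS libraries lay close together and the populations did not overlap. DS exceeded DF by 2.91 (SE 0.48, adjusted p of 0.00672, limma), which is 7.57-fold, and exceeded DP by 5.82 (adjusted p of 0.000674, limma), which is 58.5-fold. DP minus DF was -2.91, called lower (adjusted p of 0.00507, limma). All 3 calls were made under all 15 alternative settings, but their size rests on uneven DP libraries. Without DP replicate 1, DS minus DP was 6.56 and DP minus DF was -3.65; without DP replicate 2, they were 5.08 and -2.17. Within DS the Nt5e level was above 98.1% of tested genes.

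Entpd1, the CD39 gene that acts one step before CD73, did not move with Nt5e. It measured 36.3 and 36.1 RPKM in DS, 38.8 and 20.1 RPKM in DP, and 53.3 and 48.2 RPKM in DF. DF was highest, and DP spread across the DS values. No comparison was called: DS minus DF was -0.48 (95% interval between -1.23 and 0.28), DP minus DF was -0.83 (between -1.59 and -0.08, limma adjusted p of 0.058) and DS minus DP was 0.36. The DP minus DF difference was called under the median-ratio scaling, at -1.66 with a limma adjusted p of 0.0123, and without DP replicate 1, at -1.29 with an adjusted p of 0.0120.

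**Figure D3:**
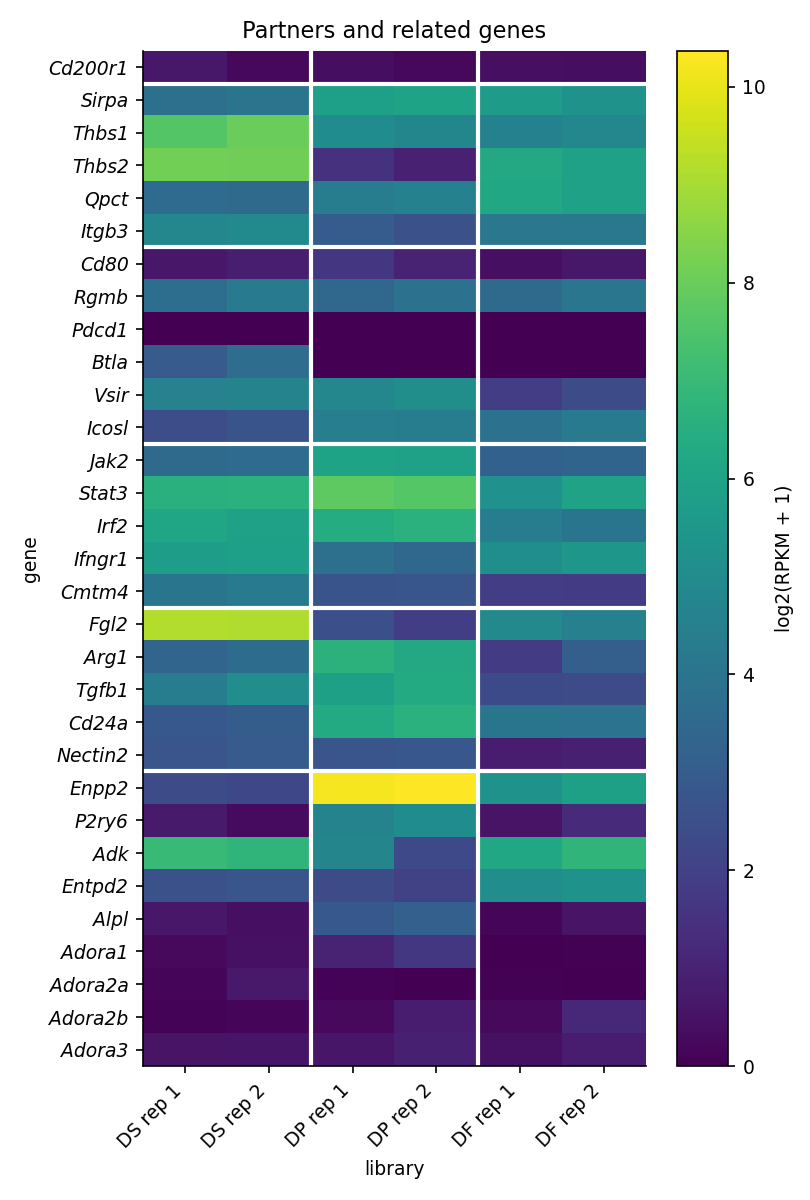
Log2(RPKM + 1) of 31 binding partners and pathway genes in the 6 libraries, with DS at the left, then DP and DF, and brighter cells for higher levels. Thbs1, Thbs2 and Fgl2 are brightest in DS, Enpp2 and Jak2 in DP, and Sirpa is darker in DS than in the others.

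The other genes that make, sense or clear extracellular ATP and adenosine were read as a list. Of 38 such genes 23 were tested, with 3 higher and 2 lower in DS against DF, 8 higher and 2 lower in DP against DF, and 2 higher and 7 lower in DS against DP. The 8 of 23 called higher in DP against DF stand beside the 31.5% of all tested genes, and the 2 lower beside 6.87%. Over all tested genes 20.6% were higher and 5.95% lower in DS against DF, and 9.42% and 12.8% in DS against DP. The median-ratio scaling gave 6 higher and 6 lower in DP against DF and 2 higher and 3 lower in DS against DF. The median log2 differences of the 23 genes were 0.38, 0.78 and 0.05, beside 0.53, 0.71 and -0.17 for all tested genes. Enpp2, which encodes autotaxin, a secreted enzyme of the ENPP family, measured 4.24 and 3.81 RPKM in DS, 1187 and 1322 RPKM in DP, and 38.4 and 58.8 RPKM in DF. It was higher in DP than in DF by 4.69 (adjusted p of 0.000161, limma) and lower in DS than in DF, at -3.27 (adjusted p of 0.000403, limma). P2ry6, a receptor for extracellular UDP, was at 0.693 and 0.250 RPKM in DS, 23.9 and 31.6 RPKM in DP, and 0.473 and 1.40 RPKM in DF. Alpl, the tissue-nonspecific alkaline phosphatase long used as a papilla marker, can also turn AMP into adenosine, and was at 0.588 and 0.343 RPKM in DS, 6.22 and 8.13 RPKM in DP, and 0.110 and 0.463 RPKM in DF.

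Entpd2, an ectonucleotidase that favours ATP, was lower in both follicle populations, at 4.94 and 5.69 RPKM in DS and 4.22 and 3.14 RPKM in DP, against 33.2 and 38.1 RPKM in DF. Its differences from DF were -2.54 in DS and -2.98 in DP (limma adjusted p of 0.000712 and 0.000376), and it shares 612 exon bases with Npdc1 on the same strand. Adk, the kinase that clears adenosine inside cells, was at 131 and 109 RPKM in DS, 25.0 and 3.88 RPKM in DP, and 72.6 and 109 RPKM in DF, low but uneven in DP. Its DS minus DP call, at 3.42, was lost in 5 of the 15 alternatives and lay between 2.22 and 4.63 over them. The adenosine receptors Adora1, Adora2a, Adora2b and Adora3 all averaged under 1 RPKM in DS and in DF, and Adora1 averaged 1.61 RPKM in DP; none passed the filter.

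Other genes known to restrain immune cells, a list of ligands with some receptors and enzymes, were read beside the 7 genes. Of 24 genes 16 were tested. In DS against DF 4 were higher and 1 lower, where 20.6% of all tested genes were higher and 5.95% lower. In DP against DF 5 were higher and 1 lower, beside 31.5% and 6.87%. In DS against DP 2 were higher and 4 lower, beside 9.42% and 12.8%. The median-ratio scaling gave 3 higher and 3 lower in DS against DF and 4 higher and 3 lower in DP against DF. Fgl2, fibrinogen-like protein 2, known as an effector of regulatory T cells, measured 572 and 558 RPKM in DS, 4.77 and 2.75 RPKM in DP, and 28.3 and 22.0 RPKM in DF. DS exceeded DF by 4.44 (adjusted p of 0.000212, limma) and DP by 6.93 (adjusted p of 6.06e-05, limma), and DP minus DF was -2.48 (adjusted p of 0.00108, limma). The order of its population means, with DS first and DP last, was that of Nt5e.

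Several of the genes on this list were highest in DP. Arg1, which depletes arginine, measured 9.28 and 11.8 RPKM in DS, 102 and 74.7 RPKM in DP, and 2.45 and 7.74 RPKM in DF. Tgfb1, the gene of transforming growth factor beta 1, was at 19.9 and 33.2 RPKM in DS, 59.0 and 80.2 RPKM in DP, and 4.04 and 4.16 RPKM in DF, and was called higher in DS and in DP than in DF. Cd24a, a glycoprotein read by Siglec receptors, was at 6.17 and 7.41 RPKM in DS, 79.6 and 98.1 RPKM in DP, and 15.2 and 14.6 RPKM in DF. It is also a gene of keratinocytes, and Krt5 and Krt14 were among 6 of 16 tested keratinocyte markers called higher in DP than in DF, beside 31.5% of all tested genes. Under the median-ratio scaling Epcam alone of the 16 was called; their part in the result was not tested. Nectin2, whose human protein binds the receptor TIGIT, was at 5.71 and 6.80 RPKM in DS and 5.61 and 6.07 RPKM in DP, against 0.785 and 0.903 RPKM in DF.

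The composition of the 7 genes' summed level changed between populations. Their sum was 1408 and 1206 RPKM in DS, 233 and 198.5 RPKM in DP, and 268 and 223 RPKM in DF. Cd200 made up 53.1% and 44.4% of it in DS, 13.2% and 11.6% in DP, and 0.845% and 0.824% in DF. Cd47 made up 19.9% and 22.3% in DS, 49.7% and 57.5% in DP, and 42.0% and 46.5% in DF. Nt5e made up 23% and 27.4% in DS, 3.74% and 1.24% in DP, and 18.8% and 16.1% in DF. Cd47 was thus the most abundant of the 7 in DP and DF, and Cd200 in DS. The set was selected on the Cd200 level in DS, so its large share there was given by the selection. That share also lowers the shares of the other genes in DS, where the Cd47 level itself was highest.

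Genes with the most similar profiles were found by the root mean square of the differences in centred log2(RPKM + 1) over the 6 libraries, where 0 is an identical profile. For Cd200 the nearest were Plxdc2 at 0.716, Gsta4 at 0.734, Chchd10 at 0.807, Lrrc15 at 0.811 and Aqp1 at 0.839, beside a median of 3.01 over 14260 genes compared. Plxdc2 measured 715 and 715 RPKM in DS, 37.4 and 43.3 RPKM in DP, and 8.56 and 10.1 RPKM in DF, so its DF level was above that of Cd200. Aqp1, the water channel gene, was at 124 and 120 RPKM in DS, 8.74 and 4.90 RPKM in DP, and 1.22 and 1.30 RPKM in DF. For Nt5e the nearest were Ntn4 at 0.445, Lrig3 at 0.461, Pltp at 0.494, Gria3 at 0.507 and Mme at 0.507, beside a median of 2.53. Mme encodes neprilysin, another ectoenzyme of the cell surface. For Cd47 the nearest was Lgals1 at 0.0497, with a median of 0.716. Lgals1 encodes galectin 1, itself on the list of other genes that restrain immune cells. It measured 1039 and 1098 RPKM in DS, 437 and 433 RPKM in DP, and 453 and 401.5 RPKM in DF. For Cd274 the nearest was Znrf1, a ubiquitin ligase gene, at 0.0926 with a median of 1.01. It measured 14.9 and 20.6 RPKM in DS, 84.2 and 73.8 RPKM in DP, and 7.53 and 13.3 RPKM in DF. For Cd276 the nearest was Col9a3 at 0.167 with a median of 0.842, and for Entpd1 it was Cyp20a1 at 0.170 with a median of 0.813. Col9a3 was a low gene, at 0.441 and 2.305 RPKM in DS, 1.02 and 0.979 RPKM in DP, and 3.16 and 2.32 RPKM in DF. At such levels the pseudocount shapes the profile, and Cd276 itself differed little next to its replicate spread.

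**Figure D4:**
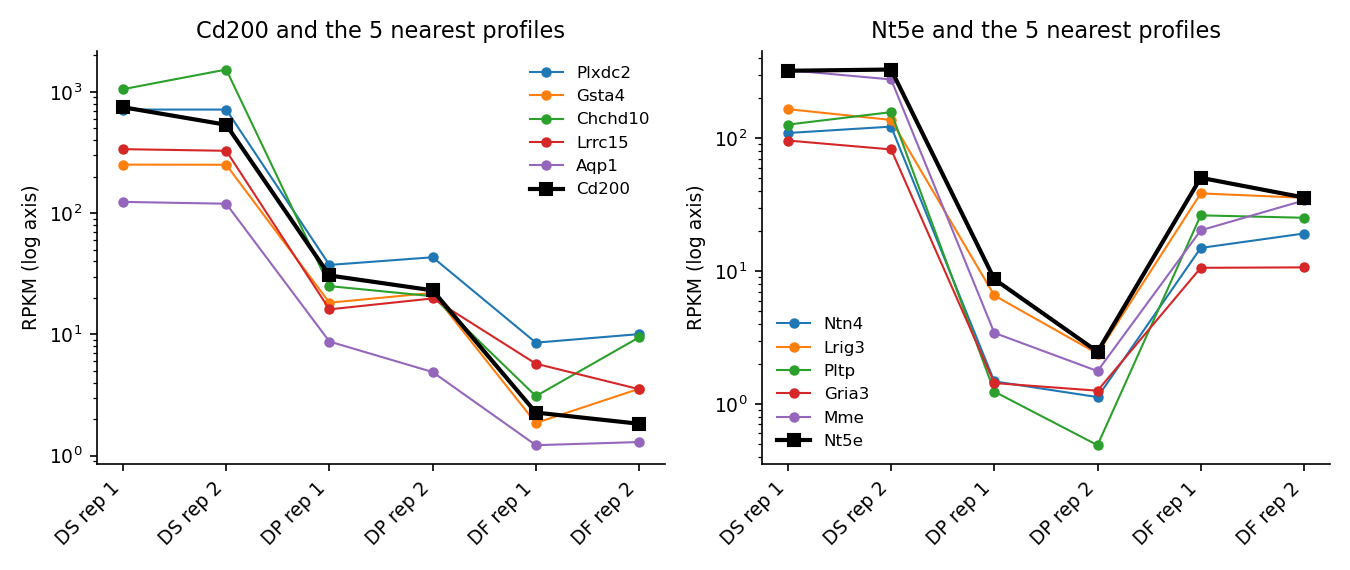
RPKM on a log axis in the 6 libraries for Cd200 and its 5 nearest genes and for Nt5e and its 5 nearest genes, with DS at the left, then DP and DF. In the Cd200 panel the levels step down with each population, and in the Nt5e panel DP holds the lowest values.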

How the data were processed

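Per the labels, cells were sorted by flow cytometry, RNA was amplified with the NuGEN Ovation RNAseq System V2, and polyadenylated RNA was sequenced on an Illumina HiSeq instrument. The labels call the 2 libraries of each population biological replicates. The deposited values are RPKM per gene and library, made by the authors; the submitters' processing notes list the build GRCm39 and the tools DESeq2 1.28.1 and Salmon 1.9.0 without saying what each did. No source used here gives read totals, annotation or use of strand. Relative depth was read from the steps between low values, and no counts or counting intervals were derived.

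The 14664 of 24529 genes that reached 1 RPKM in 2 or more libraries were analysed as log2(RPKM + 1), with a pseudocount of 1, in limma 3.58.1 under R 4.3.3. A mean per population was fitted over all 6 libraries, with eBayes and a trend, and each of the 3 comparisons had a two-sided test with p-values adjusted by Benjamini-Hochberg over all tested genes. Calls needed an adjusted p under 0.05 together with a log2 difference of 1 or more in size. Folds are ratios of mean RPKM, and the log2 scale with its pseudocount understates differences of low genes. Of the 7 members, 6 passed the filter; Pdcd1lg2 did not. The script was tested on simulated data.

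The members, gene lists and tests were chosen with earlier results of these data known. Named were all members, the listed binding partners, and from each pathway list up to 5 called genes that reached 5 RPKM, ranked by their largest called difference; Qpctl, Cd200r3, Cd200l1, Lgals1 and single marker genes were named after their values were seen. Cd200r5 and Sirpg are on the lists and were not analysed here, and 1 other listed gene is not reported here. The alternatives were omitting the filter or setting it at 5 RPKM, a pseudocount of 0.1, median-ratio scaling, rescaling to the same sum, eBayes without a trend, the replicate block, no fold minimum, only the populations compared, and leaving out each library. Loci and promoters come from RefSeq GRCm38.p6 and exon overlaps from the GENCODE annotation of that build; this is not the build the notes name, and values were matched to them by symbol or gene ID only. All 7 members had a promoter window.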

Additional observations from a re-analysis of the deposited data

How the results depend on the processing

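The calls of Nt5e in all 3 comparisons, of Cd47 for DS minus DP and of Cd274 for DP minus DF were made under every alternative listed. Over the 5 tested members other than Cd200, 213 of 225 values kept their direction and side of the threshold. Settings that alter only the filter, trend, block, fold minimum or libraries of the third population leave the difference itself unchanged. Those values could not change direction. Differences that changed sign were those of Cd47 for DP minus DF under median-ratio scaling (-0.75), of Cd276 for DS minus DP after rescaling to the same sum (-0.21), without DS replicate 2 (-0.38) and without DP replicate 1 (-0.06; range with 1 library left out -0.38 to 0.42), and of Entpd1 for DS minus DP without DP replicate 2 (-0.10; range -0.10 to 0.82); none of these was called as deposited, and the cause was not tested.

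For Cd200 the DS minus DF difference was 8.21 with a pseudocount of 0.1, 7.20 under median-ratio scaling and 8.04 after rescaling to the same sum, and the DP minus DF difference was 3.64, 2.48 and 3.74 in the same order. Leaving out 1 library gave 7.46 to 7.94 between DS and DF, 2.98 to 3.38 between DP and DF and 4.28 to 4.76 between DS and DP.

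The genes called numbered 3899 between DS and DF, 5620 between DP and DF and 3257 between DS and DP. Rescaling to the same sum gave 7019 for DS minus DF (6373 higher, 646 lower) and 9885 for DP minus DF (9213 higher, 672 lower), and dropping the fold minimum, which admits more genes by construction, gave 6558 and 8642. Median-ratio scaling gave 3279 for DP minus DF. Leaving out 1 library gave 2998 to 4406 between DS and DF, 4262 to 6231 between DP and DF and 2447 to 3200 between DS and DP. No source used here says whether same-numbered libraries share animals or a sort. Their deviations correlated at -0.0714 for DS and DF, -0.0463 for DP and DF and -0.0335 for DS and DP over the tested genes. These values show no shared deviation across genes, but they cannot tell whether the libraries had a common origin. With the replicate block the calls numbered 3838, 5591 and 3163, and no call of a member changed. Of 765 values for named list genes 745 kept their call and 20 lost significance or the fold minimum. Only comparisons called as deposited were counted, mostly of genes named for their largest called differences, so a high share of kept calls was built in.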
